A study of Mus musculus with 2 samples.

Results

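Fabp6 encodes the ileal bile acid-binding protein, which carries bile acids through the enterocytes of the distal small intestine, and the droplet barcodes that hold its transcript are called Fabp6 barcodes here. A barcode counted when it had at least 500 detected genes and at least 3 unique molecular identifiers (UMIs) of Fabp6. In addition the goblet cell genes Tff3 and Spink4 together had to take under 3% of its UMIs, and the hormone genes Sct, Ghrl, Pyy, Nts, Cck, Gcg, Sst and Chgb together under 2%. The members were thus chosen by measured UMI counts, of Fabp6 above all. This rule found 151 of 2492 barcodes, 66 of 1014 in the Casp8-mutant library and 85 of 1478 in the Mlkl-null library. The Casp8-mutant library came from 1 E18.5 mouse embryo of genotype Casp8 C362A/C362A Mlkl -/-, whose caspase-8 lacks its catalytic cysteine. The Mlkl-null library came from 1 E18.5 Mlkl -/- embryo, and both embryos were of the C57BL/6 background. Mlkl, which encodes the membrane-disrupting executor of necroptosis, was thus absent from both, and no wild-type library was analysed here. The protocol describes papain dissociation of the whole intestine, while the tissue label reads small intestine, so which stretches of gut entered is not settled. With 1 embryo per genotype no test was possible, no difference has a replicate check, and every interval below is a 95% interval for counting error only.

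Bile acids made in the liver are taken back from the gut lumen mostly in the ileum. Slc10a2 imports them across the apical membrane, Fabp6 binds them in the cytosol, and the Slc51a and Slc51b subunits together export them across the basolateral membrane. Bile acids activate the nuclear receptor encoded by Nr1h4 (farnesoid X receptor), which induces Fabp6, both exporter subunits and Fgf15, the hormone that signals back to the liver. Proximal enterocytes are rich instead in Fabp1, the liver-type fatty acid-binding protein, and in the lactase gene Lct. Before birth the rodent ileum also takes up protein from the lumen by endocytosis.

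Promoter sequence is shown for Fabp6, Slc10a2 and Fabp1, which are the gene that defines the barcodes, the apical importer and an enterocyte gene that was low in them. The sequences are those of RefSeq on GRCm38.p6, read 5′ to 3′ on the strand of the gene, and reach from 250 bases before the RefSeq start towards it, leaving out 64 bases of Slc10a2 and 52 bases of Fabp1 that the GENCODE gene model transcribes. They lie at chr11:43601563-43601812 (minus strand) for Fabp6, chr8:5105352-5105537 (minus strand) for Slc10a2 and chr6:71199629-71199826 (plus strand) for Fabp1. Capitals mark matches to 4 motifs searched on both strands.
Fabp6: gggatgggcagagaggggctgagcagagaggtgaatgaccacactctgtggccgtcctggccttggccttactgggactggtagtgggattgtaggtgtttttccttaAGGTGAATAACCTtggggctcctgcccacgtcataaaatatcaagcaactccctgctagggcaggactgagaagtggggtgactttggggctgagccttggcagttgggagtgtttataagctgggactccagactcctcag
Slc10a2: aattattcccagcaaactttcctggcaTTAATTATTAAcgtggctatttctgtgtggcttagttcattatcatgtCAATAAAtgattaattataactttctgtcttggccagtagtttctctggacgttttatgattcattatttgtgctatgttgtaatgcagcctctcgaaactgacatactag
Fabp1: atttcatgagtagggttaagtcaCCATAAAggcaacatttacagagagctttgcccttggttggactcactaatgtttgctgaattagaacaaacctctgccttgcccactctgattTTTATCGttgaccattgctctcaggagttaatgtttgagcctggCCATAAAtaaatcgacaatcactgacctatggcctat
The capitals of Fabp6 are an inverted repeat of the farnesoid X receptor type (IR-1, searched as AGGTNA and TNACCT with any 1 base between), at bases -142 to -130 from the start. This motif was present in the 250 bases before the start of 6 of 32851 promoters, or 0.0183%. In Slc10a2 the capitals are a hepatocyte nuclear factor 1 motif (TTAAT and ATTAA with any 1 base between) at bases -223 to -213, found in 0.116% of promoters, and a caudal-type CDX motif (TTTATNG) at bases -175 to -169, found in 9.81% of promoters. A CDX match also stood at bases -62 to -56 and at bases -52 to -46, in the stretch not shown. The capitals of Fabp1 are CDX matches at bases -227 to -221, -133 to -127 and -89 to -83. The fourth motif, for GATA factors (AGATAA, in 9.99% of promoters), was matched in none of these windows and at bases -131 to -126 of Nr1h4. None of the 4 motifs was found in the 250 bases before the starts of Slc51a and Slc51b. A match describes letters only, and the absence of one says nothing about binding.

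The libraries differed in depth and in what surrounded the cells. They held 2804929 UMIs in the Casp8-mutant library and 6290008 in the Mlkl-null library, and the Fabp6 barcodes held 249064 and 431940 of these. A Fabp6 barcode had a median of 2583 UMIs (range 1154 to 14726) and 1392.5 genes in the Casp8-mutant library, against 4732 UMIs (range 1494 to 11971) and 2208 genes in the Mlkl-null library. Haemoglobin genes took a median of 0.988% of UMIs in the Casp8-mutant Fabp6 barcodes and 0.268% in the Mlkl-null ones, and at least 1% in 32 of 66 and 0 of 85. Epithelial markers took at least 0.325% and 0.394% of the UMIs of every Fabp6 barcode, in the Casp8-mutant and Mlkl-null libraries. Markers of other cell types reached 2% of UMIs in 8 of 66 Casp8-mutant Fabp6 barcodes and in 0 of 85 Mlkl-null ones. Both libraries contained 2 barcode sequences in common, both of which were Fabp6 barcodes of at least 1 library. Casp8 itself had 32 UMIs in the Casp8-mutant Fabp6 barcodes and 26 in the Mlkl-null ones, and Mlkl had 3 and 0, but 3′ tags read neither the substitution nor the deletion, which leaves the genotypes unchecked by these data. Xist had 779 UMIs in the Casp8-mutant Fabp6 barcodes and 0 in the Mlkl-null ones, so sex and genotype cannot be told apart in any comparison of the embryos.

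The Fabp6 barcodes formed 7.54% (exact Clopper-Pearson interval 5.88 to 9.50) of the 875 Casp8-mutant barcodes with at least 500 genes and 5.91% (4.75 to 7.25) of the 1439 Mlkl-null ones. These shares describe the rule and are not a finding about cell numbers. Fabp6 alone at 3 UMIs would have taken 77 and 87 barcodes. Of those, the goblet limit left out 10 and 2, and the hormone limit 1 and 0, in the Casp8-mutant and Mlkl-null libraries. Just inside the threshold, 15 Casp8-mutant and 19 Mlkl-null barcodes had exactly 3 Fabp6 UMIs. Just outside it, 49 and 33 barcodes that met the other limits had 2 UMIs, and 134 and 156 had 1.

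Fabp6 (ENSMUSG00000020405, chr11:43596049-43601540, minus strand, mm10) had 938 UMIs over the Casp8-mutant Fabp6 barcodes and 834 over the Mlkl-null ones. Per barcode the median was 7.5 (range 3 to 86) and 6 (range 3 to 64). Scaled to each barcode's depth, the lowest, median and highest values were 204, 2626 and 37186 CPM (UMIs per 1000000) in the Casp8-mutant library and 285, 1320 and 12726 CPM in the Mlkl-null library. The ranges thus overlapped over nearly their whole length, and the summed levels were 3766 and 1931 CPM, a ratio of 1.95 (1.78 to 2.14). The rule chose on these same counts, at median depths of 2583 and 4732 UMIs, so this ratio is no finding about the embryos. Because the rule set a minimum in UMIs and not in CPM, a deep barcode could enter with a low level: the 2 deepest Casp8-mutant members, with 14726 and 14227 UMIs, had 3 Fabp6 UMIs each. Free RNA also carried the gene. In barcodes with almost no epithelial markers, which should lack Fabp6, it stood at 90.8 CPM in the Casp8-mutant library and 31.5 CPM in the Mlkl-null library. It was detected there in 14.8% of 135 and 9.20% of 87 barcodes, at median depths of 1436 and 2384 UMIs, and in none of them at 3 UMIs.

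**Figure D1:**
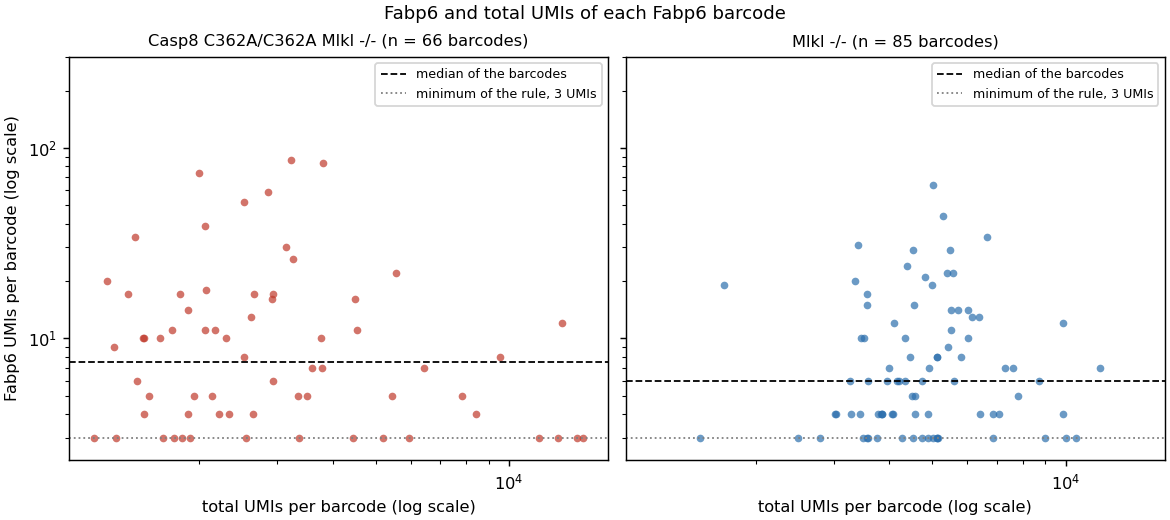
Fabp6 UMIs of each Fabp6 barcode (vertical, log scale) against its total UMIs (horizontal, log scale), Casp8 C362A/C362A Mlkl -/- left with 66 barcodes and Mlkl -/- right with 85. The dashed lines are the medians of 7.5 and 6 UMIs, the dotted lines the minimum of 3 UMIs, and the highest counts, 86 and 64 UMIs, belong to barcodes with 3223 and 5029 UMIs in all.

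Fabp6 barcodes were set beside 3 other kinds of barcode in the same library. Apolipoprotein-rich barcodes had 0 Fabp6 UMIs and at least 0.5% of UMIs from Apoa1, Apoa4, Apob and Apoc3 (176 in the Casp8-mutant library, 795 in the Mlkl-null library). Other epithelial barcodes had under 3 Fabp6 UMIs and at least 0.3% from epithelial markers (419 and 1022), and the first kind overlaps with them. Barcodes with under 0.1% from epithelial markers (135 and 87) served as a gauge of free RNA, although they hold immune and stromal cells of their own. In each set UMIs were summed per library and expressed as CPM, so these are levels per gene, not per transcript length. The rule chose the Fabp6 barcodes by measured values, and nothing between the sets was tested.

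The named markers separated the Fabp6 barcodes only in part. Slc10a2 (chr8:5083219-5105351), the apical importer, had 10 UMIs in the Casp8-mutant Fabp6 barcodes and 4 in the Mlkl-null ones, or 40.1 and 9.26 CPM, against 12.5 and 3.31 CPM in other epithelial barcodes. These were 3.29 times (1.33 to 7.36) and 3.05 times (0.676 to 8.78) the level in other epithelium, so the second interval reaches below 1. Apoa1, the main apolipoprotein of high-density lipoprotein, stood at 5015 and 9675 CPM in Fabp6 barcodes and at 5614 and 9284 CPM in other epithelial barcodes. Cps1 (chr1:67123026-67231259), which makes carbamoyl phosphate for the urea cycle and citrulline synthesis, stood at 253 and 1875 CPM in Fabp6 barcodes and at 264 and 1547 CPM in other epithelial barcodes. Apoa1 and Cps1 thus did not set the Fabp6 barcodes apart from other epithelium. Fgf15 (chr7:144896531-144900953) followed Fabp6 more closely, with 11 Casp8-mutant and 14 Mlkl-null UMIs, or 44.2 and 32.4 CPM, against 2.08 and 6.62 CPM in other epithelial barcodes. Its ratio to other epithelium was 19.1 (5.62 to 119) in the Casp8-mutant library, where the other epithelial barcodes held 3 UMIs, and 4.99 (2.40 to 9.52) in the Mlkl-null library. After each barcode was thinned to 1500 UMIs, which kept 57 of 66 and 84 of 85 Fabp6 barcodes, Fgf15 was detected in 8.77% (2.91 to 19.3) of the Casp8-mutant and 4.76% (1.31 to 11.7) of the Mlkl-null ones. In other epithelial barcodes the thinned shares were 0.338% of 296 and 0.822% of 973. Before thinning, the Fabp6 barcodes had shares of 12.1% and 15.3%.

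Other genes of bile acid handling stood higher in Fabp6 barcodes than in other epithelium of the same library. Of the 13 listed genes, 6 were measured (at least 30 UMIs over the 2 sets) in the Casp8-mutant library, and 5 of these were at least 2-fold higher and 0 at least 2-fold lower, where 2.82% of all genes measured were 2-fold higher. In the Mlkl-null library 11 were measured, 5 were at least 2-fold higher and 0 lower, where 3.35% of all genes were higher. The median log2 ratio of the list was 1.28 and 0.86, beside 0.01 and -0.02 over all genes measured. The 5 in the Casp8-mutant library were Slc51a, Slc51b, Nr1h4, Abcg2 and Abcb1a, and the 5 in the Mlkl-null library were Fgf15, Abcb1a, Abcg2, Abcc2 and Slc10a5. Of the Mlkl-null ones, Slc10a5 had only 7 UMIs in the Fabp6 barcodes and Fgf15 only 14. Slc51a, Slc51b and Nr1h4 did not reach 2-fold in that library. Abcb1a, an apical drug efflux pump, was the member that led in both libraries among those over 50 UMIs per library in Fabp6 barcodes, at 209 and 185 CPM against 49.1 and 71.3 CPM, or 4.26 times (2.91 to 6.16) and 2.61 times (2.01 to 3.33). Against apolipoprotein-rich barcodes the list stood less far apart. There 6 were measured in the Casp8-mutant library, 0 at least 2-fold higher and 0 lower (median 0.43), where 18.9% of all genes were higher and 11.4% lower. In the Mlkl-null library 9 were measured, 2 higher and 0 lower (median 0.57), where 3.55% of all genes were higher and 6.37% lower.

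The exporter subunits differed between the libraries in how far Fabp6 barcodes stood above other epithelium. Slc51b (chr9:65412714-65422955) stood at 414 CPM in the Casp8-mutant Fabp6 barcodes, 3.04 times (2.37 to 3.87) the 136 CPM of other epithelial barcodes. In the Mlkl-null library it stood at 150 CPM, 1.26 times (0.952 to 1.62) the 120 CPM of other epithelial barcodes. Its partner Slc51a (chr16:32474504-32487879) stood at 237 CPM in the Casp8-mutant library, 2.67 times (1.92 to 3.64) the 89.3 CPM of other epithelium. In the Mlkl-null library Slc51a stood at 299 CPM, 1.34 times (1.11 to 1.61) the 223 CPM of other epithelium. Against apolipoprotein-rich barcodes the distance was smaller: Slc51b had 229 and 142 CPM there, and Slc51a 199 and 267 CPM. The intervals of the Slc51b ratios over other epithelium do not overlap between the libraries, but with 1 embryo each that difference was not tested. Nr1h4, the bile acid receptor, stood at 72.3 and 169 CPM in Fabp6 barcodes and at 35.3 and 96.4 CPM in other epithelium, or 2.08 times (1.13 to 3.57) and 1.76 times (1.35 to 2.25).

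**Figure D2:**
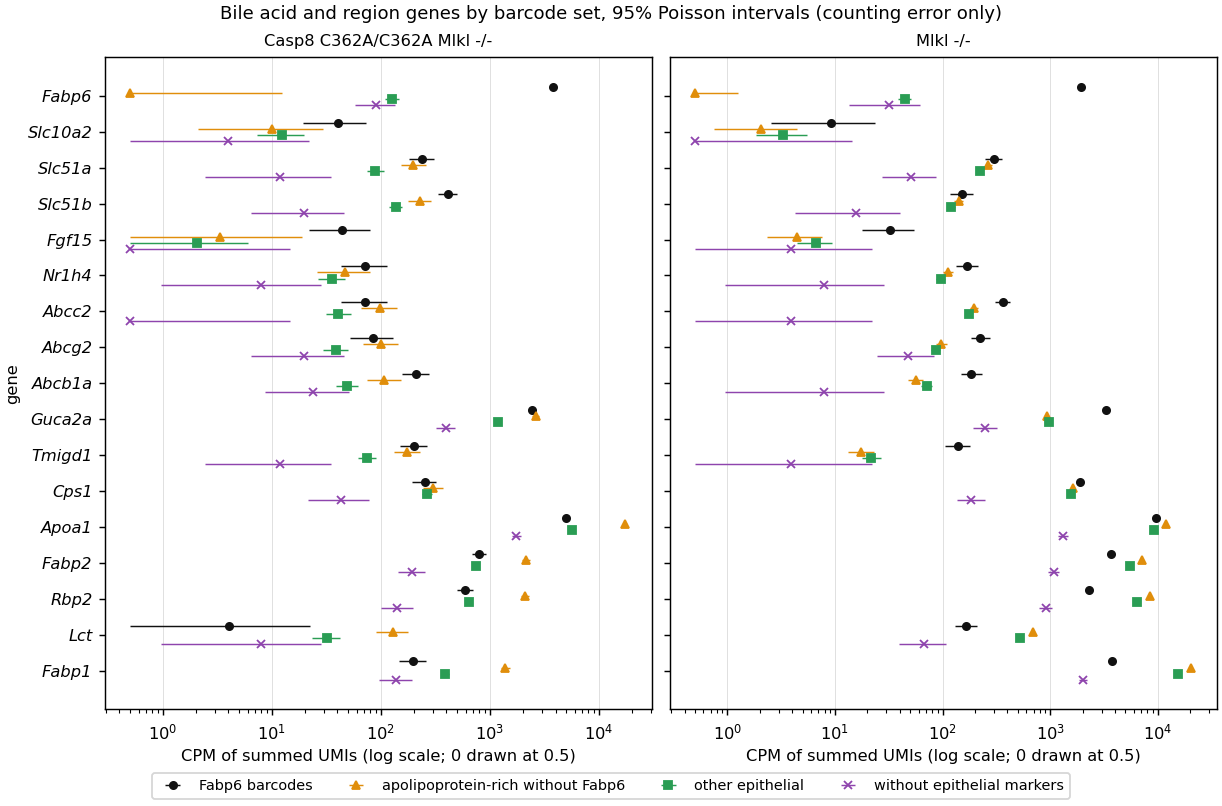
Levels of bile acid and region genes in 4 sets of barcodes (horizontal axis, CPM of summed UMIs, log scale, 0 drawn at 0.5), Casp8 C362A/C362A Mlkl -/- left and Mlkl -/- right. Bars are exact Poisson intervals. The Fabp6 barcodes (black circles) lie right of other epithelial barcodes (green squares) for Fgf15 and Abcb1a in both panels, and left of them for Fabp1, at 197 against 385 CPM and 3727 against 15456 CPM.

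Low Fabp1 and high Guca2a distinguished the Fabp6 barcodes from other epithelial barcodes, by more in the Mlkl-null library. Fabp1 (chr6:71199827-71205023) stood at 3727 CPM in the Mlkl-null Fabp6 barcodes, against 15456 CPM in other epithelial and 20523 CPM in apolipoprotein-rich barcodes. In barcodes without epithelial markers it stood at 2014 CPM. Per barcode the Mlkl-null Fabp6 barcodes had a median of 2262 CPM (range 562 to 34854), and 1 of 85 lay above the median of other epithelial barcodes, 16957 CPM. In the Casp8-mutant library Fabp1 stood at 197 CPM in Fabp6 barcodes, 385 CPM in other epithelial barcodes and 138 CPM in barcodes without epithelial markers. After thinning it was detected there in 8 of 57 Fabp6 barcodes and 9 of 63 barcodes without epithelial markers, and is read as background. Fabp6 barcodes held 0.516 times (0.374 to 0.685) the Fabp1 of other epithelium in the Casp8-mutant library and 0.241 times (0.229 to 0.253) in the Mlkl-null library.

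Guca2a (chr4:119637704-119639471), which encodes guanylin, a peptide that regulates salt and water transport, went the opposite way. It stood at 2421 CPM in Casp8-mutant and 3306 CPM in Mlkl-null Fabp6 barcodes, against 1192 and 979 CPM in other epithelial barcodes. The ratios were 2.03 (1.85 to 2.23) and 3.38 (3.18 to 3.58). Per barcode 49 of 66 Casp8-mutant Fabp6 barcodes lay above the 740 CPM median of other epithelial barcodes, and 84 of 85 Mlkl-null ones lay above theirs, 348 CPM. All 66 and all 85 Fabp6 barcodes held a Guca2a UMI, against 46.7% of 135 and 44.8% of 87 barcodes without epithelial markers, which were shallower. Thinned to 1500 UMIs, 86.0% and 96.4% of Fabp6 barcodes held a Guca2a UMI. The thinned shares were 61.1% and 50.6% in other epithelial barcodes, and 41.3% and 34.2% in those without epithelial markers. Compared with apolipoprotein-rich barcodes the gene was higher in the Mlkl-null library alone, at 3306 against 927 CPM, while the Casp8-mutant levels were 2421 and 2628 CPM.

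Genes of the proximal small intestine were low in Fabp6 barcodes beside Fabp1. Of 10 listed proximal genes, 9 were measured in the Mlkl-null library and 7 of them were at least 2-fold lower than in other epithelium, 0 higher, with a median log2 ratio of -1.58. Over all genes 9.37% were 2-fold lower there. In the Casp8-mutant library 4 were measured, and 1 was at least 2-fold lower and 0 higher (median -0.32), where 6.14% of all genes were lower. Rbp2, the cellular retinol-binding protein of enterocytes, stood at 590 and 2283 CPM in Fabp6 barcodes against 640 and 6395 CPM in other epithelial barcodes. Lct, which encodes lactase, stood at 4.02 and 167 CPM in Fabp6 barcodes against 31.8 and 527 CPM in other epithelial barcodes. Onecut2, a transcription factor of the duodenum, had 0 UMIs in the 85 Mlkl-null Fabp6 barcodes, an exact interval of up to 4.25% of barcodes with a UMI. It was detected in 26.3% of 1022 other epithelial barcodes. Thinned to 1500 UMIs, the shares were 0 of 84 and 13.1% of 973. Of 10 colon genes, 5 were measured in the Mlkl-null library, and 2 of these were at least 2-fold lower in Fabp6 barcodes than in other epithelium and 0 higher.

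**Figure D3:**
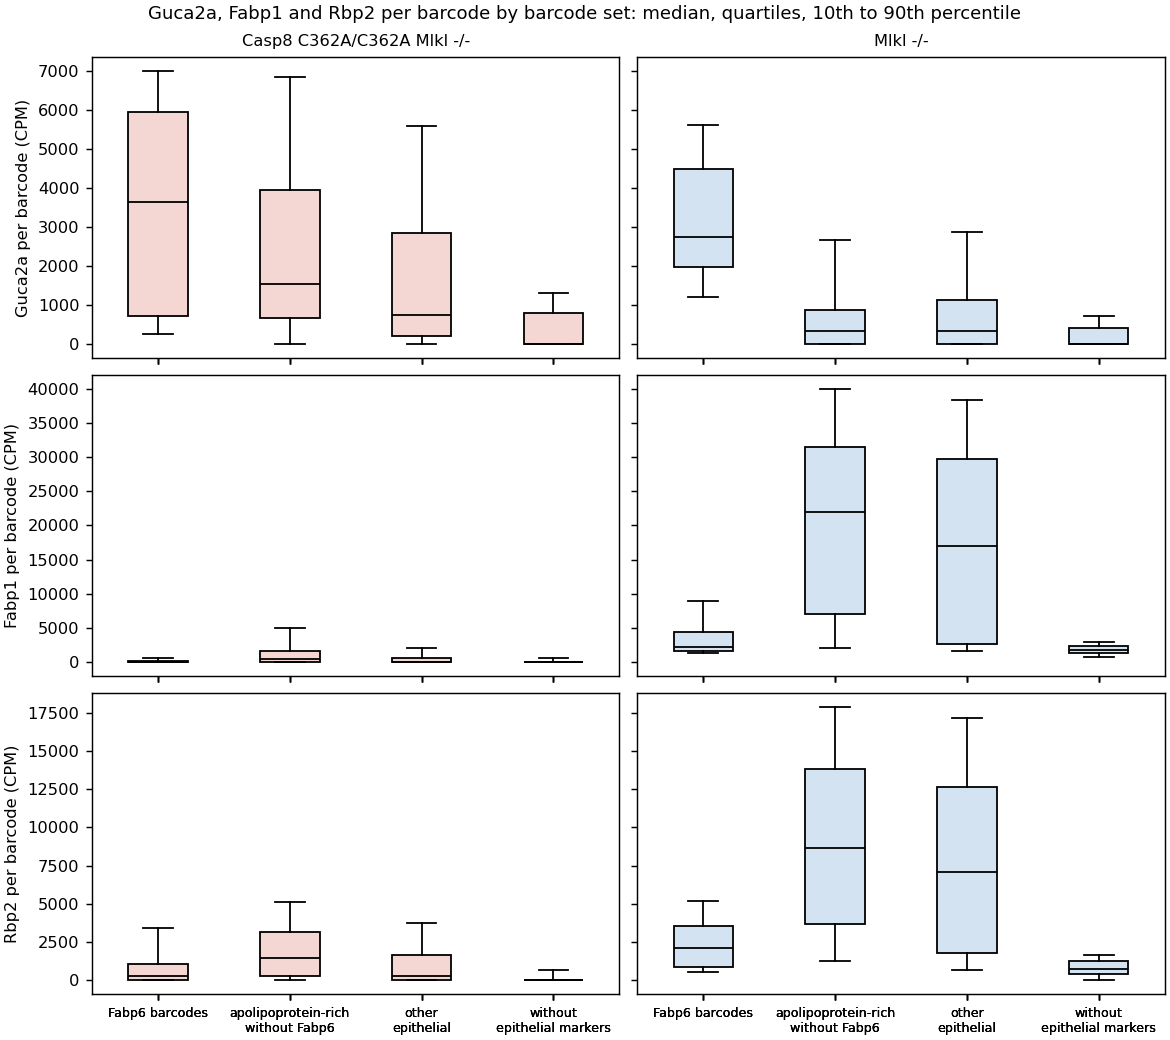
Guca2a, Fabp1 and Rbp2 per barcode (vertical, CPM) in 4 sets of barcodes, Casp8 C362A/C362A Mlkl -/- left and Mlkl -/- right. Boxes give the median and quartiles over barcodes and whiskers the 10th to 90th percentile. In the Mlkl-null library the Fabp6 barcodes have the highest Guca2a median (2760 CPM) and an Fabp1 median of 2262 CPM against 16957 CPM in other epithelial barcodes.

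The genes named against other epithelium had the same direction in both libraries and were ranked by the smaller of the 2 distances from 1 of their interval bounds, with no minimum fold. The 8 leading higher genes were Fabp6 itself, Fgf15, Abcb1a, Fdps, Tmigd1, Cldn8, Guca2a and ccdc198. Fdps, the farnesyl diphosphate synthase of the cholesterol pathway, stood at 361 and 681 CPM against 143 and 254 CPM. Of 12 cholesterol genes, 9 and 11 were measured in the Casp8-mutant and Mlkl-null libraries and 1 and 2 were at least 2-fold higher in Fabp6 barcodes. Over all genes measured 2.82% and 3.35% were higher. Tmigd1, an adhesion molecule of the brush border membrane, stood at 201 and 139 CPM against 74.8 and 21.8 CPM, and Cldn8, a tight junction claudin, at 128 and 322 CPM against 43.6 and 128 CPM. The 8 leading lower genes were Reg1, Rn7sk, Gpx2, Sfn, Fabp1, Abhd2, Clu and Lct. Gpx2, the epithelial glutathione peroxidase, had 171 and 8 UMIs in Fabp6 barcodes, 0.553 and 0.333 times the level in other epithelium.

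Against apolipoprotein-rich barcodes, 18.9% of all genes measured were at least 2-fold higher and 11.4% at least 2-fold lower in the Casp8-mutant library, and 3.55% and 6.37% in the Mlkl-null library. The leading higher genes by the same ranking were Fabp6, Fgf15, Edn1, Fdps, Cldn8, Tomm20, S100g and Npm1. S100g, the vitamin D-dependent calcium-binding protein calbindin-D9k, stood at 277 and 831 CPM against 111 and 577 CPM. The leading lower genes were Fabp1, Apoc2, Lct, Rbp2, Rn7sk, Fcgrt, Apoa4 and Cd36, which include the neonatal immunoglobulin receptor chain Fcgrt at 133 and 475 CPM against 601 and 1458 CPM. Apoa4 and the other apolipoproteins helped to choose that set, so their difference from it was built in. The Casp8-mutant apolipoprotein-rich barcodes also held 80453 CPM of the nuclear RNA Malat1, against 40287 CPM in Fabp6 barcodes and a median depth of 1455 against 2583 UMIs. The part of this difference in the Casp8-mutant counts was not tested.

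Within the Fabp6 barcodes, Guca2a was higher in bins of higher Fabp6 count in both libraries. In the Casp8-mutant library, barcodes with 3 or 4, 5 to 9 and at least 10 Fabp6 UMIs numbered 21, 15 and 30, and in the Mlkl-null library 35, 22 and 28. The lowest Casp8-mutant bin had a median of 2553 UMIs but included barcodes of 14726, 14227, 12918 and 11676 UMIs, with 3 Fabp6 UMIs each. Bin levels are of summed UMIs, so these deep barcodes weighed most in that bin. Guca2a stood at 1505, 2235 and 3619 CPM in these Casp8-mutant bins and at 2823, 3328 and 3886 CPM in the Mlkl-null ones. Mlkl-null epithelial barcodes with 0 Fabp6 UMIs had 899 CPM of Guca2a, and barcodes with 1 or 2 had 1229 CPM. Slc51b stood at 222, 454 and 613 CPM in the Casp8-mutant bins, and at 168, 107 and 166 CPM in the Mlkl-null ones, where it had no such order. Slc51a stood at 57.9, 367 and 363 CPM in the Casp8-mutant bins and at 366, 223 and 281 CPM in the Mlkl-null ones. Tmigd1 stood at 125, 140 and 329 CPM in the Casp8-mutant bins and at 87.1, 49.5 and 281 CPM in the Mlkl-null ones. Fgf15 had 8 of its 11 Casp8-mutant UMIs and 8 of its 14 Mlkl-null UMIs in the highest bin. A rising order was not particular to genes that set these barcodes apart. Apoa1 stood at 3020, 5483 and 7057 CPM in the Casp8-mutant bins and at 8470, 8620 and 12091 CPM in the Mlkl-null ones. The nuclear RNA Malat1 stood at 27813, 44162 and 52438 CPM in the Casp8-mutant bins, and at 32283, 34134 and 29338 CPM in the Mlkl-null ones.

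Gpx2 and Top2a were highest in the lowest bin of the Casp8-mutant library, where the deep barcodes named above weighed most. A gradient with Fabp6 level and the weight of those barcodes cannot be told apart in these sums. In the Casp8-mutant bin with 3 or 4 Fabp6 UMIs, Gpx2 stood at 1235 CPM, close to the 1291 CPM of epithelial barcodes with 0 Fabp6 UMIs, and at 297 and 295 CPM in the next bins. Top2a, a topoisomerase of dividing cells, stood at 212, 69.8 and 79.4 CPM in the Casp8-mutant bins, with 22 of its 33 UMIs in the lowest. In the Mlkl-null library all 4 Top2a UMIs came from 1 barcode. Mlkl-null Fabp1 stood at 4717, 2312 and 3735 CPM in the bins, against 10916 CPM with 1 or 2 Fabp6 UMIs and 16402 CPM with 0. Edn1, the vasoconstrictor peptide endothelin-1, stood at 839, 891 and 635 CPM in the Casp8-mutant bins and at 784, 561 and 93.7 CPM in the Mlkl-null ones.

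Proliferation genes were low in the Mlkl-null Fabp6 barcodes. Of 16 proliferation genes, 10 were at least 2-fold lower than in other epithelium there and 0 higher, with all 16 measured (median log2 ratio -1.61), where 9.37% of all genes were lower. In the Casp8-mutant library 15 were measured, and 1 was at least 2-fold lower and 1 higher (median -0.29), where 6.14% of all genes were lower. At least 1 UMI of these genes was found in 46 of 66 Casp8-mutant and 65 of 85 Mlkl-null Fabp6 barcodes, at least 3 in 20 and 25, and at least 5 in 17 and 8, at median depths of 2583 and 4732 UMIs. Of 10 intestinal stem cell genes, 4 were measured over other epithelium in the Casp8-mutant library and 6 in the Mlkl-null library, and 2 and 4 were at least 2-fold lower in Fabp6 barcodes, 0 and 0 higher.

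Between the embryos, 3646 genes had at least 30 UMIs over the Fabp6 barcodes of both libraries. Of these, 602 (16.5%) were at least 2-fold higher and 794 (21.8%) at least 2-fold lower in the Casp8-mutant barcodes than in the Mlkl-null ones. The median log2 ratio over all measured genes was -0.20, and -0.28 for the same genes in other epithelial barcodes. Scaling by the median of ratios instead of the total moved that median to 0.02 and gave 785 higher and 573 lower genes, so the balance of the directions depends on the scaling. A gene could reach the minimum of 30 UMIs through 1 library alone, so the counts and medians over measured list members below describe those members and are no support for a change of the list. Fewer cells expressing a gene and less RNA of it per cell cannot be told apart in the summed values.

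Bile acid genes differed between the embryos gene by gene, where 16.5% of all measured genes were at least 2-fold higher and 21.8% lower. Of the 13, 6 were measured: Slc51b was at least 2-fold higher, Nr1h4, Abcc2 and Abcg2 were at least 2-fold lower, and Slc51a and Abcb1a were neither. Slc51b had 103 UMIs in the Casp8-mutant Fabp6 barcodes and 65 in the Mlkl-null ones, 414 and 150 CPM, a ratio of 2.74 (2.0 to 3.81). In other epithelial barcodes its levels were 136 and 120 CPM. A Slc51b UMI was found in 43.9% (30.7 to 57.6) of the thinned Casp8-mutant and 17.9% (10.4 to 27.7) of the thinned Mlkl-null Fabp6 barcodes, against 22.3% and 17.5% of thinned other epithelial barcodes and 1.59% and 1.37% of those without epithelial markers. Before thinning those Fabp6 shares were 65.2% and 50.6%.

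The partner subunit did not follow. Slc51a counted 59 UMIs in Casp8-mutant and 129 in Mlkl-null Fabp6 barcodes, that is 237 and 299 CPM, with a ratio of 0.797 (0.573 to 1.09) whose interval includes 1. Nr1h4 had 18 and 73 UMIs, or 72.3 and 169 CPM, and was 2.29-fold lower (1.38 to 4.16). The apical pump Abcc2, which exports conjugated bile salts and bilirubin, had 18 and 157 UMIs and was 4.91-fold lower (3.08 to 8.71), and the pump Abcg2 had 21 and 97 UMIs and was 2.61-fold lower (1.65 to 4.50). Abcb1a had 52 and 80 UMIs, a ratio of 1.13 (0.779 to 1.62). Among members below 30 UMIs, Slc10a2 had a ratio of 4.05 (1.25 to 18.9) and Fgf15 of 1.38 (0.560 to 3.23), and Abcc3 had 0 and 0 UMIs. The median log2 ratio of the 6 was -0.76 in Fabp6 barcodes and -1.23 in other epithelium. That median depends on which barcodes count: with at least 10 Fabp6 UMIs it was 0.37, and after thinning to 1500 UMIs before the rule 1.002.

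Most measured genes of absorption and metabolism were lower in Casp8-mutant than in Mlkl-null Fabp6 barcodes, but the minimum favoured such genes. Over all 3646 measured genes 21.8% were at least 2-fold lower and 16.5% higher. Under 30 UMIs in the Casp8-mutant barcodes were 8 of 14 fatty acid, 3 of 10 apolipoprotein and 2 of 4 proximal genes. In the Mlkl-null barcodes 0, 0 and 1 were under it. Of 14 measured fatty acid genes, 11 were at least 2-fold lower and 0 higher (median log2 ratio -1.70, and -2.09 in other epithelium). Fabp1 had 49 Casp8-mutant and 1610 Mlkl-null UMIs and was 18.8-fold lower (14.3 to 25.7). The Casp8-mutant counts are read as background, and free RNA differed between the libraries too. Median Fabp1 per barcode was 0 CPM in Casp8-mutant and 2262 CPM in Mlkl-null Fabp6 barcodes, and 0 and 1855 CPM in barcodes without epithelial markers. That fold is thus not a measure of these cells alone. Cd36, a fatty acid receptor, had 0 and 30 UMIs. Of 10 apolipoprotein and chylomicron genes, 7 were lower and 0 higher (-1.47, and -1.73 in other epithelium), among them Apoc3 with 129 and 1519 UMIs. Of 4 proximal genes measured, Lct, Rbp2 and Adh1 were lower and none higher, with a median of -2.09 beside -3.68 in other epithelium. After thinning to 1500 UMIs before the rule, the medians were -0.61 for apolipoprotein and -0.63 for proximal genes.

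Most measured genes of nitrogen metabolism and endocytosis were lower as well, with the same limit and beside the same 21.8% of all measured genes at least 2-fold lower. Under 30 UMIs in the Casp8-mutant barcodes were 6 of 9 urea cycle, 8 of 19 endocytosis, 3 of 7 cholesterol and 11 of 17 brush border genes. In the Mlkl-null barcodes 1, 0, 0 and 2 were under it. Of 9 measured genes of the urea cycle and arginine synthesis, 8 were at least 2-fold lower and 0 higher (-2.16, and -1.90 in other epithelium). Cps1 had 63 Casp8-mutant and 810 Mlkl-null UMIs, 7.36-fold lower (5.73 to 9.74), and Ass1, the argininosuccinate synthase, had 28 and 346. Of 19 genes of endocytosis and the lysosome, 14 were lower and 0 higher (-1.42, and -1.20 in other epithelium). The endocytosis median was -0.65 after thinning before the rule. Cubn, the receptor cubilin that takes up intrinsic factor with its vitamin, had 3 and 69 UMIs, a ratio of 0.0873 (0.0152 to 0.230). The lysosomal sialidase Neu1 had 129 and 474 UMIs and the cathepsin Ctsz 161 and 507. Of 7 measured cholesterol genes, 3 were lower and 0 higher (-0.98), and of 17 brush border genes 7 were lower and 0 higher (-0.78), including Ace, the angiotensin-converting enzyme, with 29 and 195 UMIs.

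Structural and housekeeping lists differed less. Of 9 nutrient transporters, 3 were at least 2-fold lower and 0 higher, near the 21.8% of all genes, and their median of -0.48 was -0.061 with means of per-barcode shares and 0.10 after thinning before the rule. Of 12 enterocyte transcription factors, 1, Maf, was lower and 0 higher (-0.37). Of 13 genes of endoplasmic reticulum stress, 1 was lower, Dnajb9, and 0 higher (-0.56). Of 10 mitochondrially encoded genes, 2 were lower and 0 higher (-0.54). The 1 colon gene measured, Slc26a3, was lower, and no intestinal stem cell gene reached 30 UMIs. The 12 lower genes that the naming rule gave, ranked by the interval bound nearest to 1, were Fabp1, Maob, Gatm, Cdkn1c, Ndrg1, Lct, S100a1, Afp, Bex2, Cps1, Apoc3 and Mt1. Cdkn1c, an imprinted cell cycle inhibitor, had 107 and 1689 UMIs and was 9.06-fold lower (7.48 to 11.2). Maob, a mitochondrial amine oxidase, had 19 and 435 UMIs and was 12.9-fold lower (8.35 to 22.1).

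Interferon-stimulated genes were higher in Casp8-mutant Fabp6 barcodes, where 16.5% of all measured genes were at least 2-fold higher. Of the 32 listed, 19 were measured and all 19 were at least 2-fold higher, but each of the 19 was under 30 UMIs in the Mlkl-null barcodes, so the minimum itself selected them for being high in the Casp8-mutant ones. The 13 under the minimum held 213 UMIs in Casp8-mutant and 22 in Mlkl-null Fabp6 barcodes, with a higher CPM in the Casp8-mutant ones for all 13. The measured 19 had a median log2 ratio of 5.87, or 4.80 with genes at 0 set to the floor of 3 counts, beside 4.50 in other epithelium. Isg15, a ubiquitin-like modifier, had 565 Casp8-mutant and 2 Mlkl-null UMIs, 2268 and 4.63 CPM, a ratio of 392.3 (135 to 4055). It was found in 86.0% of thinned Casp8-mutant Fabp6 barcodes and 1.19% of thinned Mlkl-null ones, and before thinning in 65 of 66 and 2 of 85. Barcodes without epithelial markers had 766 and 229 CPM of Isg15, but those sets include immune cells, so they are no gauge of free RNA for this gene. Ifit3 was at least 37.0-fold higher, with 64 UMIs in Casp8-mutant and 0 in Mlkl-null Fabp6 barcodes, and Zbp1, a nucleic acid sensor, at least 19.7-fold higher, with 34 and 0.

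Several antigen presentation and antimicrobial genes were higher too. Of 9 measured MHC class I genes, 8 were at least 2-fold higher and 0 lower (2.75, and 2.25 in other epithelium), where 16.5% of all measured genes were higher. Of those 9, however, 6 were under 30 UMIs in the Mlkl-null barcodes and 0 in the Casp8-mutant ones, so the minimum favoured genes high in the latter. For B2m, which encodes beta-2 microglobulin, 330 and 95 UMIs gave a ratio of 6.00 (4.78 to 7.65), and the immunoproteasome subunit Psmb8 had 75 and 0, at least 43.4-fold higher. Of 6 antimicrobial genes measured, Reg3b, Reg3g, Lcn2 and Saa3 were higher and Defa24 and Leap2 lower (4.77, or 3.47 with genes at 0 at the floor, and 6.52 in other epithelium). That median was 2.62 with a limit on markers of other cell types and between 6.64 and 8.88 under the other settings that moved it. Of the 6 antimicrobial genes, 4 were under 30 UMIs in the Mlkl-null barcodes and 2 in the Casp8-mutant ones. Reg3g, a lectin that acts on Gram-positive bacteria, was at least 246-fold higher, with 426 UMIs in Casp8-mutant and 0 in Mlkl-null Fabp6 barcodes, and Reg3b had 1250 and 14, a ratio of 150 (91.9 to 284). A single Casp8-mutant barcode held 24.9% of the Reg3g UMIs and 15.8% of the Reg3b UMIs. In Casp8-mutant bins of 3 or 4, 5 to 9 and at least 10 Fabp6 UMIs, Reg3g stood at 2981, 541 and 976 CPM. Reg3b stood at 6425, 2532 and 4981 CPM there. In the lowest of these bins, barcodes of 14726, 14227 and 12918 UMIs held 176, 97 and 198 of the 666 Reg3b UMIs. After thinning, Reg3g was found in 52.6% of Casp8-mutant Fabp6 barcodes and 33.3% of those without epithelial markers, and Reg3b in 80.7% and 49.2%.

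The remaining lists held few measured genes. Of 3 fetal or regenerative genes, Ly6a and Ly6e were higher and 0 lower (4.74), and Ly6a was at least 158-fold higher, with 273 and 0 UMIs. Of the 3, 2 were under 30 UMIs in the Mlkl-null barcodes and 0 in the Casp8-mutant ones. After thinning, Ly6a was found in 45.6% of Casp8-mutant Fabp6 barcodes and 41.3% of those without epithelial markers. Its level was 1669, 838 and 590 CPM in Casp8-mutant bins of 3 or 4, 5 to 9 and at least 10 Fabp6 UMIs, the lowest of which holds the deepest barcodes. Of 5 proliferation genes, 4 were higher and 0 lower (1.89), but 3 of the 5 were under 30 UMIs in the Mlkl-null barcodes. Of the Casp8-mutant Top2a, Hmgb2 and Tubb5 UMIs, 1 barcode per gene held 27.3%, 21.1% and 18.3%. Of 9 glutathione genes 2, Gpx2 and Prdx6, were higher and 0 lower, near the 16.5% of all genes. Their median was 0.41, or -0.10 with means of per-barcode shares. Of 11 immediate-early and heat shock genes, 4 were higher and 0 lower (0.72), and of 7 nuclear RNAs 4 were higher, Xist among them, and 0 lower (1.80). Of 5 NF-kB targets, Nfkbia and Cxcl2 were higher and 0 lower (0.52), and of 6 cell death genes Casp8 and Gsdmd were higher and 0 lower (0.30). With at least 100 UMIs these medians were 3.30 for NF-kB targets and -0.94 for cell death genes. Under 30 UMIs in the Mlkl-null barcodes were 3 of the 5 NF-kB targets and 4 of the 6 cell death genes. In the Casp8-mutant barcodes 2 and 3 were under it. Casp8 stood at 128 and 60.2 CPM, a ratio of 2.13 (1.23 to 3.73). Ripk3, the kinase that acts on Mlkl, had 14 and 5 UMIs, a ratio of 4.57 (1.65 to 17.2).

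**Figure D4:**
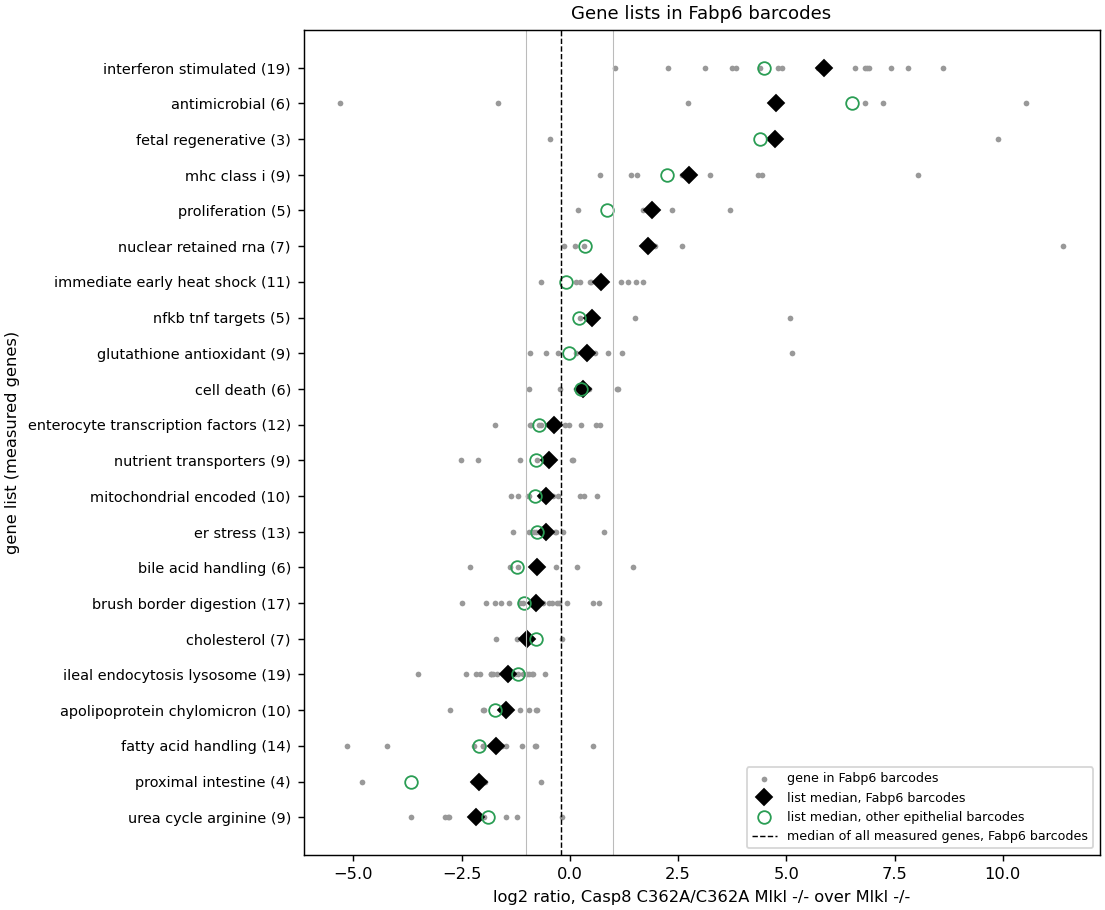
Log2 ratio of Casp8 C362A/C362A Mlkl -/- over Mlkl -/- in Fabp6 barcodes for the measured genes of each list (grey points), with the list median (black diamonds) and the median of the same genes in other epithelial barcodes (open green circles). Grey lines mark 2-fold and the dashed line the median of all measured genes, -0.20. Interferon genes have a median of 5.87 and urea cycle genes of -2.16, against 4.50 and -1.90 in other epithelial barcodes.

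Markers of granulocytes also differed between the embryos. The 10 granulocyte markers summed to 4352 CPM in Casp8-mutant and 27.8 CPM in Mlkl-null Fabp6 barcodes, with 1 and 5 of the 10 at 0 UMIs, and ran from 1133 to 26594 CPM and from 0 to 489 CPM per barcode. In barcodes without epithelial markers they summed to 9967 and 15.8 CPM. S100a8 and S100a9, which the naming rule placed among the higher genes, had 467 and 475 UMIs in Casp8-mutant Fabp6 barcodes and 5 and 4 in Mlkl-null ones. S100a8 was detected in 91.2% of thinned Casp8-mutant Fabp6 barcodes and in 90.5% of thinned barcodes without epithelial markers, at median depths before thinning of 2583 and 1436 UMIs. The 10 myeloid markers summed to 594 and 421 CPM in Fabp6 barcodes and the 10 lymphoid ones to 16.1 and 11.6 CPM, with 8 and 7 lymphoid markers at 0. The 8 goblet markers summed to 6508 CPM in Casp8-mutant and 2901 CPM in Mlkl-null Fabp6 barcodes. In barcodes without epithelial markers they summed to 3245 and 1088 CPM. The erythroid markers summed to 9532 and 2681 CPM, and the 8 acinar ones to 52.2 and 512 CPM. The part of these cell types in the differences between the embryos was not tested.

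The leading differences between the embryos were compared with those in other epithelial barcodes. Of the 24 genes named between the embryos, all had the same direction in other epithelium, but sizes differed. Afp, the fetal plasma protein alpha-fetoprotein, had 24 Casp8-mutant and 374 Mlkl-null UMIs in Fabp6 barcodes, a ratio of 0.113 (0.0704 to 0.168), against 0.642 in other epithelium. Bex2 had 3 and 90 UMIs, a ratio of 0.0671 (0.0117 to 0.174), against 0.558 in other epithelium. Fabp1 had the reverse order, with a ratio of 0.0533 (0.0389 to 0.0701) in Fabp6 barcodes and 0.0249 in other epithelium, where its Mlkl-null level was far above that of Fabp6 barcodes. The Casp8-mutant Fabp1 counts in Fabp6 barcodes are read as background, as above. These differences between sets were not tested.

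**Figure D5:**
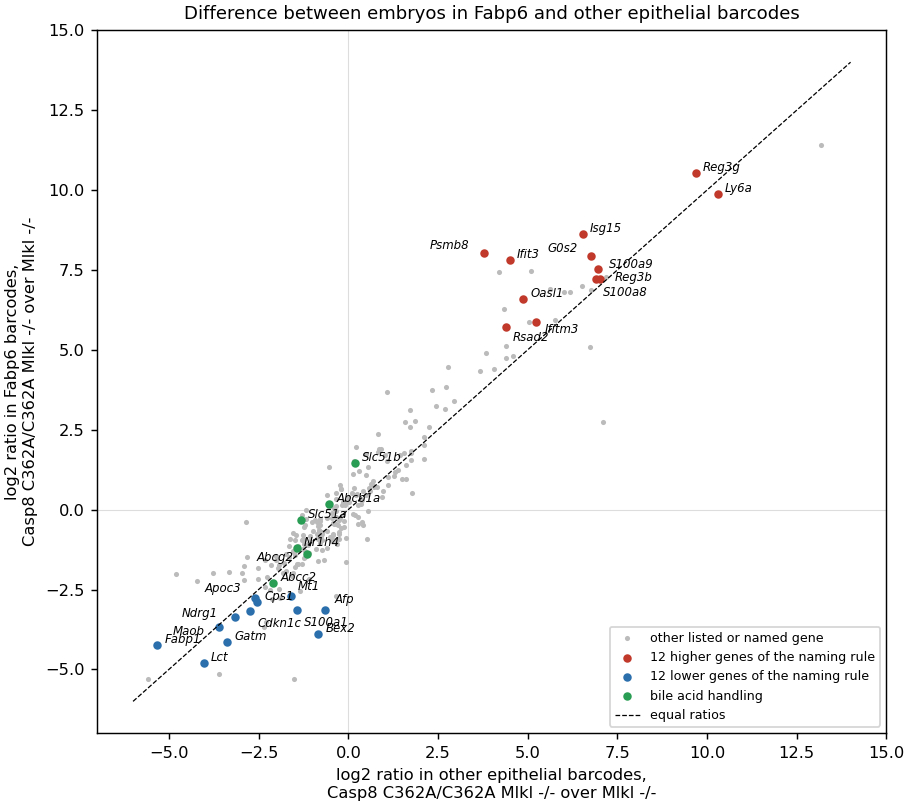
Log2 ratio of Casp8 C362A/C362A Mlkl -/- over Mlkl -/- in Fabp6 barcodes (vertical) against that in other epithelial barcodes (horizontal) for listed and named genes, with 0.5 UMI added, so that points of genes at 0 UMIs in a library depend on that addition. Points on the dashed line have equal ratios. Afp and Bex2 lie below the line, with ratios of 0.113 and 0.0671 in Fabp6 barcodes against 0.642 and 0.558, and Slc51b lies above it.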

How the data were processed

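Single-cell RNA libraries of the intestines of 2 embryos, 1 per genotype, were made with the Chromium Single Cell 3′ v2 kit, per the labels' protocols. The authors deposited UMI counts per gene and barcode, not normalized. Cell Ranger 3.0.2, Seurat 3.0 and the mm10 build are named in the submitters' processing notes, and the filtering of barcodes and doublets before deposit is not stated there. No doublet caller was run.

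GENCODE symbols were found for 52403 of 52636 gene IDs. UMIs were summed over the Fabp6 barcodes of each library and scaled to 1000000. Ratios had 0.5 UMI added to each count and a 95% interval conditional on the summed counts, shares had exact Clopper-Pearson intervals, and a gene at 0 was bounded by a floor of 3 counts over the set. A gene was measured at 30 UMIs over both sides of a comparison. Intervals cover counting error only. With 1 library per genotype no test across samples was possible, so genes are described by a rule of size, 2-fold. The ratio calculation was tested on simulated data.

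Between the embryos the 12 higher and 12 lower genes whose interval bound lay farthest from 1 were named. They needed 50 UMIs, 50 CPM and at least 25% of the level in barcodes without epithelial markers. Against each comparison set 8 genes a direction were named, with bile acid, urea cycle and cell death genes and leading list members. The ranking left out predicted genes, sex-linked genes and those for haemoglobin, ribosomal proteins and mitochondrial transcripts. The members and gene lists were chosen with earlier results of these data known. Python 3.11.15, numpy 2.4.6, scipy 1.17.1, pandas 2.3.3 and matplotlib 3.10.9 were used.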

Additional observations from a re-analysis of the deposited data

Results flagged for a closer look

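For 6 genes the level in Fabp6 barcodes relative to other epithelial barcodes lay above 1 in one library and below 1 in the other, with intervals on opposite sides of 1. With 1 embryo per genotype the difference between the libraries was not tested. Afp was at 0.493 times the level of other epithelium in the Casp8-mutant library and at 2.79 times in the Mlkl-null library. S100a1, a calcium-binding protein, was at 0.497 and 1.63 times, and the metallothionein gene Mt1 at 0.739 and 1.56 times, in the Casp8-mutant and Mlkl-null libraries. Apoa1 was at 0.894 times in the Casp8-mutant library and 1.04 times in the Mlkl-null library. In the other direction, Isg15 was at 1.30 times in the Casp8-mutant library and 0.307 times in the Mlkl-null library, where the Fabp6 barcodes held 2 UMIs. Gpx1, a glutathione peroxidase, was at 1.26 and 0.887 times.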

How the results depend on the processing

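The Fabp6 minimum and depth set the share of Fabp6 barcodes. In the Casp8-mutant library the share of 7.54% became 28.5% at 1 UMI, 13.1% at 2, 5.14% at 5 and 3.43% at 10 UMIs, 10.7% with at least 1000 genes and 4.06% after thinning to 1000 UMIs. In the Mlkl-null library 5.91% became 19.0%, 8.20%, 3.47% and 1.95% at those minimums, and 2.76% and 1.56% after thinning to 1500 and 1000 UMIs. Between the embryos, 602 higher and 794 lower genes became 198 and 251 with at least 100 UMIs, 1467 and 1683 with at least 10 UMIs, 364 and 498 at 5 Fabp6 UMIs, 214 and 285 at 10, and 99 and 94 after thinning to 1500 UMIs, which leave fewer or more genes measured. Median log2 ratios also moved. At 10 Fabp6 UMIs bile acid genes were at 0.37, proximal genes at -0.87, antimicrobial at 7.86, NF-kB targets at 4.42 and fetal genes at 3.63, and at 5 Fabp6 UMIs antimicrobial genes were at 8.14. After thinning before the rule, bile acid genes were at 1.002, endocytosis at -0.65, apolipoproteins at -0.61, proximal genes at -0.63, transporters at 0.10, antimicrobial at 6.64 and fetal genes at 6.37. With at least 10 UMIs bile acid genes were at -0.075 and fetal genes at 3.46, and with at least 100 UMIs MHC class I was at 1.55, antimicrobial at 8.88, NF-kB targets at 3.30 and cell death at -0.94. With means of per-barcode shares apolipoproteins were at -0.86, transporters at -0.061, glutathione genes at -0.10 and nuclear RNAs at 2.43, and with a limit on other cell types antimicrobial genes were at 2.62. Single genes that changed direction were ccdc198 between the embryos at 10 Fabp6 UMIs (log2 ratio 0.0019), Hmgb2 (-0.10) and Tubb5 (-0.038) over apolipoprotein-rich barcodes of at least 0.25% in the Casp8-mutant library, and Top2a (0.12) over those of at least 1% in the Mlkl-null library. The cause was not tested. The other 171 list medians under these alternatives stayed between the medians of their genes' lower and upper interval bounds. Further alternatives were chosen after seeing the data: leaving out the 2 shared barcode sequences gave 596 higher and 789 lower genes, and requiring epithelial markers in apolipoprotein-rich barcodes. No paired analysis was possible because each genotype had 1 library. Depth limits low genes: for a count of 0 in the thinned Fabp6 barcodes the exact interval reaches 6.27% in the Casp8-mutant library and 4.30% in the Mlkl-null library.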
